A study of Mus musculus with 4 samples.

Results

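The loss of the transcription factor STAT3 was examined in CD4+ T cells of the mouse, pushed towards the Th17 fate while IL-2 was neutralised. The comparison rests on 2 of the series' 4 samples, the culture titled STAT3-deficient and the culture titled STAT3-wild type, with 1 array each. Every value below is the level on the deficient array minus the level on the wild-type array. Of 18194 genes with a probe set naming them alone, 12440 had a level above the background level on at least 1 of the 4 arrays and were compared. A gene with several such probe sets was represented by the one with the highest mean over the 4 arrays.

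Both genotypes were of the C57BL/6J strain with a floxed Stat3 allele (stat3 fl/fl) and the OT2 transgene, which encodes a T cell receptor. The deficient genotype also carried CD4-Cre, a recombinase driven by the Cd4 promoter. Sorted CD4+CD44-CD62L+ cells of spleen and lymph node were kept for 72 h on plate-bound antibodies to CD3 and CD28. The medium held IL-6 at 20 ng/ml, TGF-β at 2 ng/ml, an antibody to IL-2 at 10 µg/ml and an antibody to IL-4. The other pair of the series, stat5 fl/fl OT2 with and without CD4-Cre, had the same culture except that IL-2 at 100 IU/ml took the place of the antibody to IL-2. Its values are given beside those of the STAT3 pair as a separate comparison that shares no array with it. The genotype label of the deficient sample contains CD4-Cre but ends in the words for wild type, against its title. Whether an RNA sample came from 1 mouse or from several is not stated in these sources.

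Levels are deposited values read as log2, so a difference of 1 is a 2-fold change, and a gene is called higher or lower from 2-fold on. With 1 array per group there is no replicate error, no test and no p-value, and precision is limited by the number of arrays. The median of all values, 6.20, served as the background level, and a fold change with an array under it is uncertain in size. In RNA of whole cultures, fewer cells of a type and less RNA per cell cannot be told apart.

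STAT3 is a latent transcription factor of the cytoplasm. Cytokines whose receptors contain the gp130 chain, such as IL-6, and others such as IL-21, activate the JAK kinases, which phosphorylate STAT3 so that it dimerises and enters the nucleus. It binds palindromic sites of the form TTCNNNGAA, and one of its targets, Socs3, encodes a protein that shuts the same receptors off. In CD4+ T cells STAT3 is required for the Th17 programme, whereas T-bet, GATA3 and Foxp3 direct other helper fates.

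The promoters of called genes that hold those letters are shown first, because they are the stretches of DNA near a start site that STAT3 could in principle read. RefSeq windows of GRCm38.p6 run from 250 bases before a gene's start to 50 after it, and 990 of the 1254 called genes have at least 1. The motif TTCNNNGAA, which reads the same on both strands, occurred in 8.30% of all 32851 windows, in 6.76% of the windows of genes compared, in 8.33% (31 of 372) of the windows of higher genes and in 6.07% (57 of 939) of those of lower genes. The share among lower genes was thus below that among all genes compared. Among the called genes named by rule with both arrays above background, 17 held the motif before the start, 11 of them higher and 6 lower. Windows of 1 chromosome were left out of this count. How many such genes had a window was not counted, so the 17 give no share. Before the start, the motif stood in 7.26% of the windows of all higher genes, 5.54% of those of lower genes and 5.92% of those of genes compared. The 6 with the largest differences are printed as the 250 bases before the start, 5′ to 3′ in the direction of the gene, with the motif in capitals. Socs3 lies at chr11:117969367-117969616 on the minus strand, Il18r1 at chr1:40465756-40466005 on the plus strand, Irf8 at chr8:120736108-120736357 on the plus strand, Cd96 at chr16:46120249-46120498 on the minus strand, Acsbg1 at chr9:54661886-54662135 on the minus strand and Rasgrp1 at chr2:117342878-117343127 on the minus strand.
Socs3: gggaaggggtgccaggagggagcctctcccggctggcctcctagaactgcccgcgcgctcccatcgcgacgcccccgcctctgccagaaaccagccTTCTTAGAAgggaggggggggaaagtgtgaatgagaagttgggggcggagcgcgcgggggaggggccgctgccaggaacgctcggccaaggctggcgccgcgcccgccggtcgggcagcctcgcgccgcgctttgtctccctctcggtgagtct
Il18r1: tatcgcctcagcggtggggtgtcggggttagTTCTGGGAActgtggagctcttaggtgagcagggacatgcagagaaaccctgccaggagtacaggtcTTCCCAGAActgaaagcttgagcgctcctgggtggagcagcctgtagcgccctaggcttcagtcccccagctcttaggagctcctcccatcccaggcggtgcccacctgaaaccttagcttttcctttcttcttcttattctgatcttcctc
Irf8: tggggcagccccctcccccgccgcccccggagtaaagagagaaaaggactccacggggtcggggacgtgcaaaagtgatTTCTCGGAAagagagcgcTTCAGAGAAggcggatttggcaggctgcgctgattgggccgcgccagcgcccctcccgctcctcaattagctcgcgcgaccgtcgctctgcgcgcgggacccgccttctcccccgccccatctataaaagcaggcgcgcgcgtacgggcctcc
Cd96: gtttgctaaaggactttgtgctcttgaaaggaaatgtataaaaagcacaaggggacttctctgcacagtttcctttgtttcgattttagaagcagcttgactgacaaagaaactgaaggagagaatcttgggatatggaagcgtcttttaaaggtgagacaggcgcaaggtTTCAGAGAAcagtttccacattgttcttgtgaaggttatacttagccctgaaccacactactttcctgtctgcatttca
Acsbg1: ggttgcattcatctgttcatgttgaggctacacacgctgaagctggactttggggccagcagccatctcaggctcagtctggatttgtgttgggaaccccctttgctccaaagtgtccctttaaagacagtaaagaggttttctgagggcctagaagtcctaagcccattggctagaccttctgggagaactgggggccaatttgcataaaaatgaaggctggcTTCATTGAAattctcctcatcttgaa
Rasgrp1: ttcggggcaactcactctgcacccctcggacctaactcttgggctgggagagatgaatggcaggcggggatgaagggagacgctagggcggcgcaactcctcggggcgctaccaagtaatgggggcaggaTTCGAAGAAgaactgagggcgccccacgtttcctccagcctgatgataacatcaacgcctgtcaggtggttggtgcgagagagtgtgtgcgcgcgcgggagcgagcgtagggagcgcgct
Socs3 and Acsbg1 were lower without STAT3, by -4.82 and -1.71, and the other 4 were higher. The Socs3 motif, TTCTTAGAA, begins 154 bases before the start. Il18r1 and Irf8, which have 3 and 2 windows of which 1 is printed, each hold 2 matches. A match describes the letters only, and no binding was measured in these samples.

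Other motifs were counted in the same windows on both strands. The letters TGANTCA, bound by AP-1 factors such as BATF with JUN, stood in 8.33% of the windows of higher genes and 8.31% of those of lower genes, against 4.92% of the windows of genes within 2-fold. The letters GAAA, any 2 bases and GAAA again, bound by interferon regulatory factors, stood in 7.53% of the windows of higher genes (28), 2.56% of those of lower genes (24) and 2.77% of those of genes within 2-fold. The variant with 4 bases between TTC and GAA, the spacing favoured by STAT6, gave 6.99%, 5.54% and 5.34%. In all windows, the AP-1 letters stood in 7.81%, the interferon letters in 3.44% and the STAT6 spacing in 6.95%. Because the interferon letters were more frequent among higher genes, 2 called interferon-response genes with that motif are printed in the same way, chosen after these shares were seen. They were the ones found among the 7 genes with a window, of 8 called members of the type I interferon list with both arrays above background. Windows of the chromosome left out above were not searched for this choice. Oas3 lies at chr5:120777660-120777909 on the minus strand and Trim30a at chr7:104465194-104465443 on the minus strand, where the motif is on the opposite strand.
Oas3: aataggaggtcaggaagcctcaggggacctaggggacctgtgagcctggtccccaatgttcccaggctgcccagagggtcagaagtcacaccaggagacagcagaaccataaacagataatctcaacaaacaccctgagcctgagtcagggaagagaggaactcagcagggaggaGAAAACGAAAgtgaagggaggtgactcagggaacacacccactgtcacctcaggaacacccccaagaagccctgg
Trim30a: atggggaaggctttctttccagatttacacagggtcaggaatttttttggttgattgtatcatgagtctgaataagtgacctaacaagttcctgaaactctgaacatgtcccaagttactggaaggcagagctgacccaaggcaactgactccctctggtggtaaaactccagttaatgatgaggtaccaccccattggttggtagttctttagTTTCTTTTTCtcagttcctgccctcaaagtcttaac

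The targeted gene was checked in each sample. Stat3 read 12.87 on the wild-type array, 9.93 on the deficient array, 12.33 on the STAT5 wild-type array and 12.80 on the STAT5-deficient array. The library titled STAT3-deficient thus held the lowest level. Among the 4 Stat3 probe sets, 2 differed by -2.94 and -2.97, and the others by -0.41 and -0.22. On the wild-type array the first 2 read 12.87 and 12.64, and the others only 8.01 and 7.19. The deleted part of the gene is not given in the labels used here, so a probe set outside it checks nothing.

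Without STAT3, 354 genes (2.85% of those compared) stood higher and 900 (7.23%) lower, 10.1% together, and 71.8% of called genes were lower. The median gene differed by -0.20, and 69.3% of genes lay below 0. The split depends on scaling, since the array medians differed by 0.24. Lower genes made up 53.4% of called genes with each array centred on its median and 56.3% after intensity-dependent centring. Centring raised every difference by 0.24, so each lower call nearer to 0 than -1.24 was lost. It gave 4.13% of genes higher and 4.74% lower, against 3.88% and 4.99% with intensity-dependent centring. List medians given below as lying between -0.24 and 0 thus turn to 0 or above with array centring. The lists and their members were chosen with earlier results of these data known. Their counts and medians thus describe these members, not families at large. Counts of members called are to be set beside the 2.85% higher and 7.23% lower among all genes compared. All 354 higher calls held with array centring, which raised each of them and so could undo none. Of the 900 lower calls, 590 (65.6%) held. With every level under 6.20 raised to 6.20, 2.36% of genes were higher and 5.45% lower. By the mean level of the pair, the median lay at -0.23 for levels of 7 to 8 and at -0.14 at 12 and above. The share of lower genes lay between 4.69% and 7.35% at levels from 7 to 12, and at 3.07% above them. Genes of lower mean level include those kept only through an array on which they were high, so their shares are not read. Of the higher genes, 228 (64.4%) had both arrays above background, as had 575 (63.9%) of the lower genes.

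**Figure D1:**
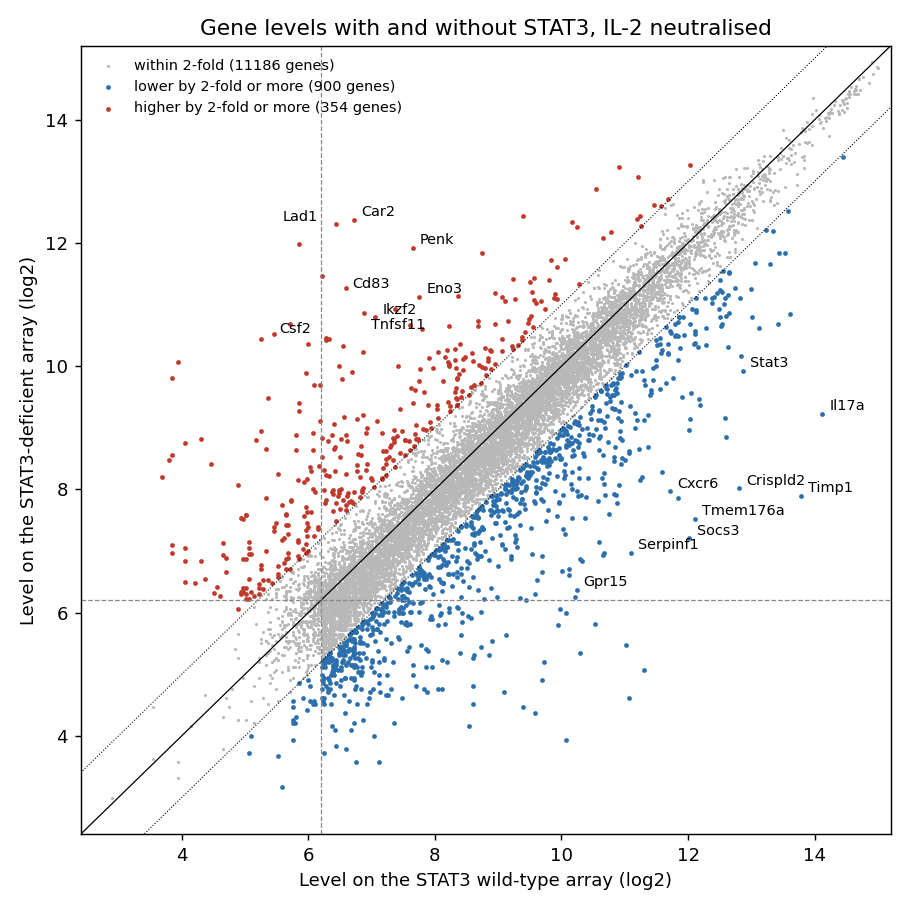
Level of each of the 12440 genes on the STAT3 wild-type array (horizontal axis, log2) and on the STAT3-deficient array (vertical axis, log2); dotted lines mark 2-fold, dashed lines the background level of 6.20, red points are higher and blue points lower genes. The 900 blue points outnumber the 354 red ones, and Timp1 (-5.89) and Lad1 (5.86) lie far from the diagonal with both arrays above background.

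**Figure D2:**
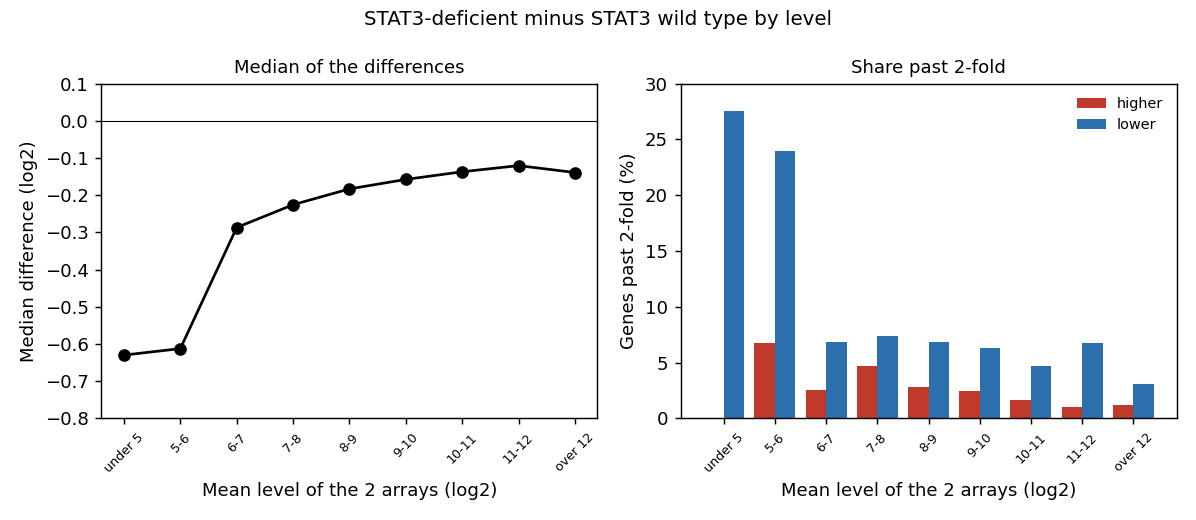
The left panel gives the median difference (log2), and the right panel the share of genes past 2-fold in each direction (%), both by the mean level of the 2 arrays of the pair (log2). From a level of 7 on, the median lies at -0.23 (7 to 8) to -0.12 (11 to 12), and lower genes take between 4.69% and 7.35% of genes up to 12 and 3.07% above; the points below 7 include genes kept only through an array on which they are high.

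The cells carried the markers of CD4 T cells on both arrays. All 9 measured markers, among them Cd3e (12.15 and 12.11) and Cd4 (11.46 and 11.84), stood above background on both arrays, and 0 differed by 2-fold. Of 4 NK cell markers 1 was above background on the wild-type array and 0 on the deficient one, of 12 myeloid and dendritic cell markers 3 and 4, of 6 B cell markers 2 and 1, of 3 erythroid markers 0 and 0, of 3 gamma delta T cell markers 3 and 2, of 4 stroma and endothelium markers 1 and 1, and of 2 CD8 T cell markers 2 and 1. Of 5 mast cell and basophil markers 0 and 1 were above it, the exception being Kit, a receptor tyrosine kinase, at 5.67 and 7.42 (1.75), while Mcpt4, Mcpt8, Cpa3 and Fcer1a were under background on all 4 arrays.

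In lists of general cell upkeep, differences were small. The lists of cytosolic ribosomal proteins (29), respiratory chain subunits (48), proteasome subunits (31) and replication and mitosis genes (34) held 142 genes, and 0 of them passed 2-fold. Their differences ran from -0.51 to 0.85. Within this range the replication and mitosis genes lay high, with 30 of 34 above 0 and a median of 0.32, against -0.20 for all genes. The farthest was Tyms, which makes thymidylate for DNA synthesis, at 0.85, and it alone of the 142 passed 2-fold with array centring (1.10). Genes that hold the cycle back or set its pace lay the other way. Of 24 cyclins, CDK inhibitors, MYC and PIM genes, 6 were lower and 1 higher (median -0.66). Mxd1, an antagonist of MYC, read 10.24 and 7.97 (-2.27), and Cdk6, a kinase of the G1 phase, 12.50 and 10.79 (-1.71). The remaining lower members, Gadd45g (-1.23), Cdkn1a (-1.13), Cdkn2d (-1.11) and Gadd45a (at the 2-fold limit), lost their calls with array centring. Gadd45b, a stress-induced relative, was higher by 1.47, or 0.99 with its probe sets averaged.

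Of the receptor chains and kinases upstream of STAT3, few passed 2-fold. Of 9 compared chains that signal through STAT3, 0 passed 2-fold, with a median of -0.62. Il6st, which encodes gp130, went from 9.19 to 8.21 (-0.99), Il6ra, the IL-6 binding chain, from 7.99 to 7.70, and Il21r from 10.30 to 9.68. Of 10 JAK and STAT genes, Stat4, which transmits IL-12 signals, was higher (9.55 and 10.63, 1.08), and Stat3 and Jak3 were lower. Jak3, the kinase of the common gamma chain receptors, stood at -1.13 and lost its call with either centring. Jak1 (-0.32), Jak2 (-0.46) and Tyk2 (0.24) lay within 2-fold.

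Feedback inhibitors of cytokine signalling did not move as a block: 2 of 18 were higher and 2 lower (median -0.12), or 4 and 1 with array centring. Socs3 read 12.02 on the wild-type array, 7.20 on the deficient array, 11.62 on the STAT5 wild-type array and 11.17 on the STAT5-deficient array. It was low in the STAT3-deficient culture alone among the 4, and its 3 probe sets ran from -4.82 to -3.69. Socs2, which is induced through STAT5, read 9.51, 11.37, 12.05 and 8.93 in the same order. It was thus higher without STAT3 (1.86) and lower without STAT5 (-3.12), although the mean of its probe sets gave 0.89 for STAT3. Usp18, a protease that damps type I interferon signalling, was higher by 1.51. Ptpn2, a phosphatase of JAK and STAT proteins, stood at -1.02 and lost its call under centring and probe set averaging.

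Receptors of other cytokines moved both ways. Il4ra, which binds IL-4, read 11.22 and 8.65 (-2.57), against 11.29 and 10.67 in the STAT5 pair. Il7r, at -1.16, kept its call only without array centring. Among 12 genes of the IL-1 and IL-18 receptor family, 3 were higher and 1 lower. Il18r1 and Il18rap, the paired chains of the IL-18 receptor, were higher by 3.55 and 1.76, as was the decoy receptor Il1r2 (7.18 and 8.34, 1.16). Il1r1, the signalling receptor of IL-1, went the opposite way, from 10.06 to a level under background of 5.99 (-4.08, or -2.04 with its probe sets averaged).

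Most compared Th17 genes were lower. Of 17 genes compared, 12 were lower and 0 higher (median -1.61, lowest -6.23), or 11 lower with array centring. Il17a read 14.12, 9.23, 13.85 and 14.44 on the wild-type, deficient, STAT5 wild-type and STAT5-deficient arrays, so that the STAT3-deficient culture alone was low, although still above background. The paired ion channel genes Tmem176a and Tmem176b, which mark RORγt-dependent cells, gave the same picture. Tmem176a read 12.11, 7.52, 12.19 and 13.52, and Tmem176b 11.84, 7.85, 12.04 and 13.30. Both were lower without STAT3 (-4.59 and -3.98) and higher without STAT5 (1.33 and 1.26). Gpr65, a proton-sensing receptor of Th17 cells, was lower by -1.61 and stood at 1.02 in the STAT5 pair. Lgals3 (0.40) and Ccr6 (0.50) lay within 2-fold.

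Secreted cytokines went in opposite directions. Of 24 compared, 6 were higher and 10 lower (median -0.22). Csf2, which encodes GM-CSF, read 6.29 on the wild-type array, 10.45 on the deficient array, 8.36 on the STAT5 wild-type array and 5.84 on the STAT5-deficient array. It was higher without STAT3 (4.17, 18.0-fold) and lower without STAT5 (-2.52). Il3, another growth factor for myeloid cells, was under background on every array but the STAT3-deficient one, where it reached 8.82. Penk, the precursor of the enkephalin peptides, went from 7.65 to 11.92 (4.27) and from 8.59 to 10.29 in the STAT5 pair. The growth factor of macrophages behaved unlike GM-CSF: Csf1 went from 10.29 to 6.86 (-3.43), and its 4 probe sets ran from -4.16 to -1.77. Lif (-1.38) and Osm (-1.36), cytokines that signal through gp130, were lower, as was Tgfb3 (-1.30). Pdgfa, at -1.06, lost its call with either centring, and Vegfc, at -1.33, was under background on both arrays of the pair.

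Several ligands of the TNF superfamily were higher. All 13 genes compared (of 17 listed) lay at or above 0, 7 were higher and 0 lower, and the median was 1.19 against -0.20 for all genes. Cd70, which engages CD27, read 5.36 on the wild-type array, 9.48 on the deficient array, 5.39 on the STAT5 wild-type array and 7.83 on the STAT5-deficient array. Tnfsf11, which encodes RANKL, read 6.88, 10.87, 6.99 and 8.71. Both genes were thus higher without either STAT, with larger differences in the STAT3 pair (4.12 and 3.98) than in the STAT5 pair (2.44 and 1.72). Tnfsf10, which encodes TRAIL, read 6.55 and 9.18 (2.62), and Tnfsf8, the CD30 ligand, 6.51 and 8.81 (2.30). Lta, which encodes lymphotoxin, was higher without STAT3 (11.19 and 12.38, 1.19) and lower without STAT5 (13.96 and 11.44, -2.52). Ltb, its membrane partner, stood at 12.23 on both arrays of the STAT3 pair. Tnfsf4 (0.97) and Tnfsf9 (0.96), the ligands of OX40 and 4-1BB, fell just short of 2-fold and passed it with array centring, which gave 10 higher members.

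Receptors of the same superfamily did not follow their ligands. Of 19 compared, 3 were higher and 6 lower (median -0.33). Tnfrsf13c, a receptor of the survival factor BAFF, read 5.64 and 7.59 (1.94), and Tnfrsf18, which encodes GITR, 12.03 and 13.27 (1.24). Tnfrsf9, which encodes 4-1BB, stood at 1.01 but at 0.79 with its probe sets averaged. Tnfrsf23 (-2.51), Tnfrsf21 (-1.82) and Tnfrsf22 (-1.66) led the lower members, but came to -1.46 and -1.22 with levels raised to background and, for Tnfrsf22, to -1.03 with probe sets averaged. Tnfrsf13b, a second BAFF family receptor, went from 12.41 to 11.12 (-1.29). Tnfrsf1a, the main TNF receptor, lost its call with centring (-1.08), and Ngfr (-1.33) was barely above background on the wild-type array.

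Several chemokine genes were higher too. Of 13 compared (of 20 listed), 6 were higher and 1 lower (median 0.82). That median depends on genes near background, since it came to 0.11 with levels raised to the background level, 0.12 with no filter and 3.50 with a stricter one. Ccl1, the ligand of CCR8, read 5.46, 10.52, 5.25 and 5.62 on the 4 arrays in the order above, and Xcl1, the ligand of XCR1 on dendritic cells, 6.29, 10.42, 6.00 and 6.60. Each was at or near background on every array but the STAT3-deficient one. Ccl22, a ligand of CCR4, showed the same pattern (5.95, 9.88, 6.21 and 5.96). Ccl3 and Ccl4, attractants of inflammatory cells, differed by 3.50 and 2.43, and Ccl5 by 1.28. Ccl20, the ligand of CCR6, lay within 2-fold (11.92 and 11.23). The lower call of Cxcl10 (-1.55) rests on levels under background in both cultures.

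**Figure D3:**
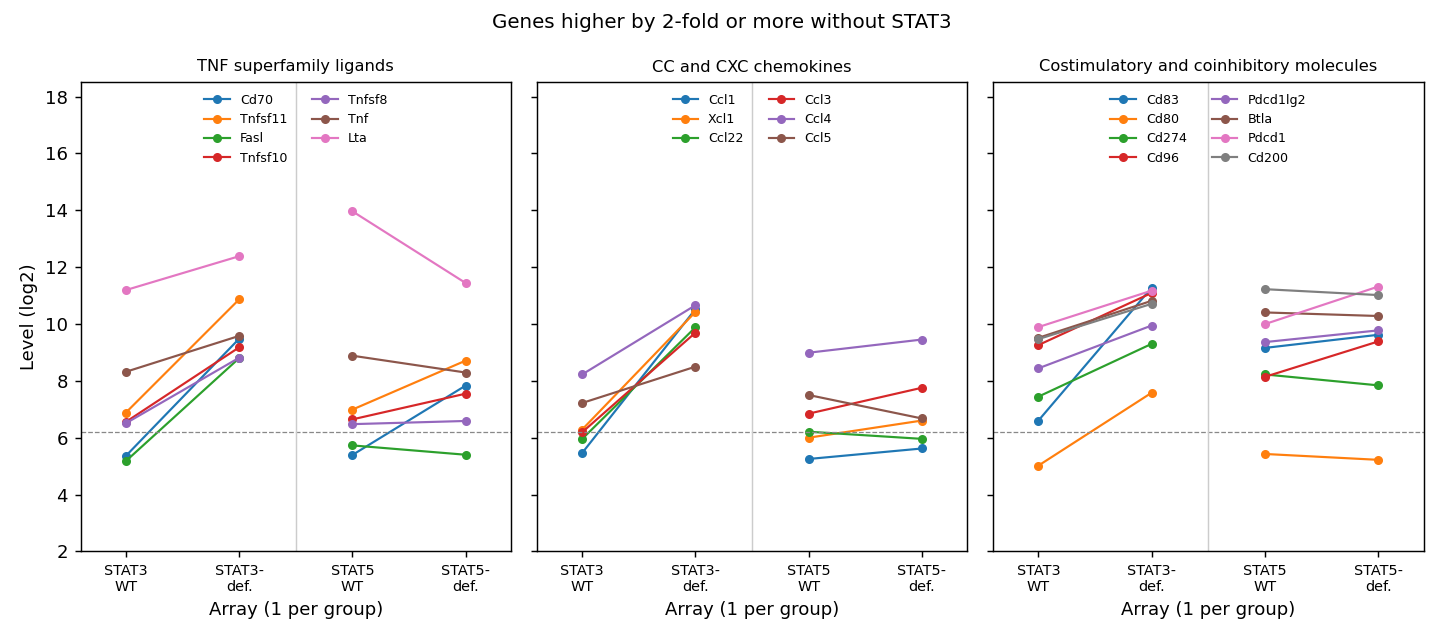
Levels (log2) on the 4 arrays, 1 per group, of the genes called higher without STAT3 in 3 lists; lines join the arrays of a pair and the dashed line is the background level of 6.20. Cd70, Ccl1, Xcl1 and Cd83 climb steeply within the STAT3 pair, whereas in the STAT5 pair Ccl1 (0.37) and Xcl1 (0.60) stay within 2-fold and Lta stands at -2.52.

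Chemokine and trafficking receptors were split. Of 24 compared, 4 were higher and 7 lower (median -0.19), close to that of all genes. Ltb4r1, a receptor of the lipid attractant leukotriene B4, read 9.94, 5.79, 10.38 and 9.24 on the wild-type, deficient, STAT5 wild-type and STAT5-deficient arrays. Gpr15, which guides T cells to the large intestine, read 10.24, 6.36, 9.57 and 9.69, and Cxcr6, the receptor of CXCL16, 11.72, 7.97, 9.28 and 11.07. In each the STAT3-deficient array was the lowest of the 4, and Cxcr6 was higher without STAT5 (1.79). Cxcr4 (-2.82), the receptor of CXCL12, Cxcr5 (-1.95), which leads cells to B cell follicles, and Gpr18 (-1.69) were lower as well. Ccr2, at -1.21, lost its call under either centring. Ccr8 went from 8.36 to 11.14 (2.78), so that this receptor and its ligand Ccl1 were both higher. Ptger4, a receptor of prostaglandin E2, was higher by 1.69, Ccrl2 by 1.19 and Ccr7, the receptor for lymph node entry, by 1.04.

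Costimulatory and coinhibitory genes were more often higher than lower. Of 25 compared, 8 were higher and 4 lower (median 0.30), and with array centring 8 and 2. Cd83, an activation marker, read 6.60, 11.28, 9.16 and 9.62 in the order above, a difference of 4.68 in the STAT3 pair and 0.46 in the STAT5 pair. Its level in the STAT3-deficient culture was the highest of the 4. Both ligands of PD-1 were higher, Cd274 from 7.44 to 9.30 (1.86) and Pdcd1lg2 from 8.44 to 9.94 (1.51), as was Pdcd1 itself (9.89 and 11.17, 1.28). Cd80, a ligand of CD28, was above background only on the STAT3-deficient array (7.58), and its difference of 2.56 came to 1.21 with probe sets averaged. Cd96 (1.83), the inhibitory receptor Btla (1.30) and Cd200 (1.24) were also higher. Among lower members, Vsir, which encodes the inhibitor VISTA, went from 11.56 to 9.63 (-1.93) and Timd2 from 7.47 to 5.84 (-1.62). Ctla4 (-1.14) and Havcr1 (-1.13) lost their calls with either centring.

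Several genes of the aryl hydrocarbon receptor battery were lower. All 9 genes compared lay below 0, 4 of them past 2-fold (median -0.71, or -2.48 over the 5 left by a stricter filter). With array centring, Arnt turned to the other side. Cyp1b1, a cytochrome P450 that the receptor induces, read 8.60, 4.52, 9.36 and 9.41 on the 4 arrays. Its difference, -4.09, came to -2.23 with probe sets averaged and to -2.41 with levels raised to background. Tiparp, another target gene, read 11.07, 8.60, 9.59 and 9.92, and the repressor Ahrr 7.52, 5.82, 6.63 and 6.82. The STAT3-deficient array was the lowest of the 4 in each, while the STAT5 pair differed by 0.06, 0.33 and 0.19. Ahr itself went from 12.17 to 9.46 (-2.71), and its 2 probe sets gave -2.71 and -1.03. The partner gene Arnt (-0.13) lay within 2-fold.

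Some genes of the extracellular matrix and of proteolysis differed widely. Of 36 compared, 13 were lower and 3 higher (median -0.73, lowest -6.44). Timp1, an inhibitor of metalloproteinases, read 13.78, 7.89, 13.95 and 13.73 on the 4 arrays, so that 3 cultures were alike and the STAT3-deficient one was 59.3-fold lower than its control. Serpinf1, an anti-angiogenic serpin, read 11.09, 6.97, 10.25 and 10.15 (-4.12). Tgfbi, a matrix protein induced by TGF-β, read 11.03, 5.47, 8.32 and 12.15, lower without STAT3 and higher without STAT5 (3.83). Ecm1 (-2.78), the protein C receptor gene Procr (-2.24), the convertase Furin (-1.88), Adam9 (-1.28) and the cathepsin Ctsc (-1.26) were also lower. Ctsl (-1.69) and Lamc1 (-1.31) came to -0.94 each with probe sets averaged, and Thbs1 (-1.52) was under background without STAT3. Serpinb6b (4.36), Serpinc1 (3.07) and Serpinb9 (2.51), an inhibitor of granzyme B, were the higher members.

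**Figure D4:**
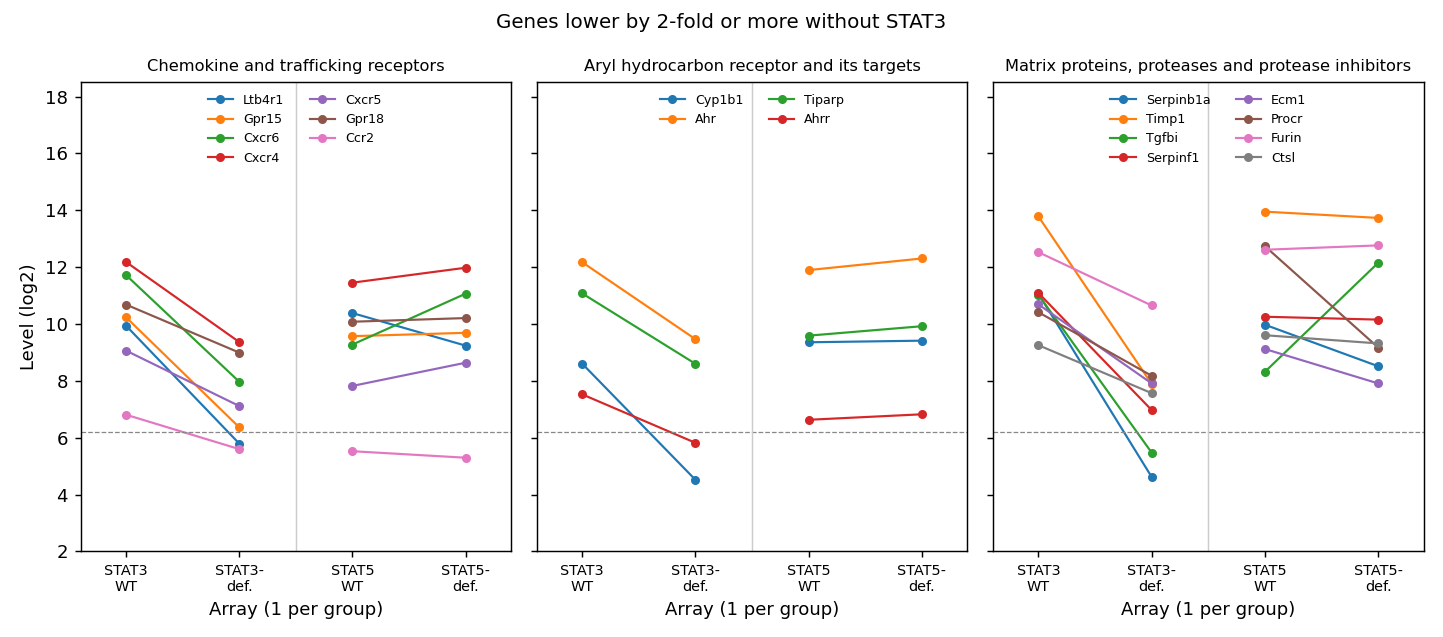
Levels (log2) on the 4 arrays, 1 per group, of genes called lower without STAT3 in 3 lists (the 8 largest of the matrix list); lines join the arrays of a pair and the dashed line is the background level of 6.20. Timp1, Ltb4r1, Gpr15 and Cyp1b1 drop within the STAT3 pair, while in the STAT5 pair Timp1 (-0.22), Gpr15 (0.12) and Cyp1b1 (0.06) stay within 2-fold and Tgfbi (3.83) climbs.

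Adhesion and cytoskeletal genes were divided. Of 27 adhesion genes 6 were higher and 3 lower (median 0.04). Itga3, an integrin chain, went from 10.58 to 7.81 (-2.77) and Cd24a from 12.04 to 9.57 (-2.47), while Cdh17 (-4.39) was under background in the deficient culture. Alcam, the ligand of CD6, went from 6.41 to 8.65 (2.24), Cd9, a tetraspanin, from 9.15 to 10.73 (1.58), and Itga4, the integrin chain that binds VCAM1, from 6.77 to 8.40 (1.63). Vcam1 (2.07) and Cadm1 (2.17) were higher, with probe sets that ran from 0.58 to 4.17 and from 0.99 to 2.78. Itgb3, at 1.43, came to 0.88 with probe sets averaged, a setting in which 4 genes of the adhesion list were higher and 3 lower. Of 33 actin and myosin genes 6 were lower and 3 higher. Myo10 (-2.45), which builds filopodia, Fscn1 (-2.09), which bundles actin, Myo1f (-1.92) and the actin-severing Gsn (-1.75) were lower, whereas Scin, a severing protein of the same family as Gsn, reached 10.07 without STAT3 from levels under background on the other 3 arrays. S100a6 (-3.36) and S100a4 (1.68), members of a calcium-binding family, went opposite ways.

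Several transcription factors linked to STAT3 or to helper fates were lower. Of 43 compared, 11 were lower and 5 higher (median -0.24, against -0.20 for all genes). With array centring 10 were lower and 8 higher. Pou2af1, a coactivator of octamer-binding factors, read 10.68, 6.96, 9.54 and 11.17 on the 4 arrays, lowest without STAT3. Satb1, a chromatin organiser, went from 13.61 to 10.85 (-2.76), and Arid5a, which stabilises cytokine transcripts, from 12.64 to 10.31 (-2.33). Etv6 (-1.94) and Vax2 (-1.41) were lower with both arrays above background. Tox2 (-1.74) and Sox4 (-1.72) came to -0.99 and -0.75 with probe sets averaged, and Zeb1 (-1.15) lost its call with centring. Hopx, a homeodomain cofactor, went from 9.23 to 11.41 (2.18) and Myb from 9.57 to 11.07. In the AP-1 list, 5 of 18 were lower and 0 higher (median -0.57). Fosl2, which restrains Th17 genes, was lower by -1.61, beside Maf (-2.41) and Batf (-1.52), while Jun (-1.21) and Bach2 (-1.11) held only without array centring.

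Families of related regulators held members that went apart. In the Ikaros family, Ikzf2 went from 7.06 to 10.80 (3.74) and Ikzf3 from 11.36 to 8.69 (-2.66, or -1.95 with probe sets averaged), while Ikzf1 stood at 11.57 and 11.55. Among IRF genes, Irf8 went from 10.17 to 12.34 (2.18) and Irf7 from 6.51 to 8.01, while Irf4 (-1.14) lost its call with array centring and Irf5 (1.21) came to 0.42 with probe sets averaged. Irf8 was lower without STAT5 (-1.06). Of 18 NF-κB genes, Tnip2, an inhibitor of the pathway, went from 10.85 to 7.90 (-2.95) and Bcl3 was lower by -2.46, whereas the subunit gene Rel was higher (1.28), as was the kinase gene Ikbke (1.11). Of 20 nuclear receptors compared, 3 were higher and 2 lower, or 1 and 2 with probe sets averaged. Their differences ran from -1.85 to 3.09. Nr1d1, a repressor of the circadian clock, was lower by -1.29 and Vdr, the vitamin D receptor, higher by 1.03, so neither was an extreme of this list. The chromatin list had 1 of 26 higher, the DNA methyltransferase gene Dnmt3a (8.31 and 10.10, 1.79), and 1 lower, Hdac4, which lost its call with centring (-1.10). Each is 3.85% of that list, against 2.85% higher and 7.23% lower among all genes compared, so the list did not stand out.

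Receptors of TGF-β, the other inducing cytokine, stood close to their control. Tgfbr1 differed by -0.24 and Tgfbr2 by -0.16. Of 24 genes in the TGF-β list, 5 were lower and 0 higher (median -0.31, lowest -2.40). Acvr2a, an activin receptor, was lower by -1.53. Smad5 (-1.39) and Eng (-1.12) came to -0.81 and -0.64 with probe sets averaged, and the inhibitor Smad7 stood at -0.80. Hypoxia-induced genes lay low in both pairs: 23 of 24 were below 0 without STAT3, 3 of them past 2-fold, with a median of -0.60, and in the STAT5 pair 6 were lower with a median of -0.55. Egln3, an oxygen sensor, was lower by -1.78 and -1.92 in the STAT3 and STAT5 pairs, and P4ha2, which hydroxylates collagen, by -1.30 and -1.36. With array centring 20 of the 24 stayed below 0.

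Several interferon-induced genes were higher. Of 33 compared type I genes, 11 were higher and 0 lower (median 0.50), or 15 higher with array centring. Oas3, an antiviral synthetase, read 6.83, 8.71, 7.10 and 6.81 on the 4 arrays, Ifih1, an RNA sensor, 7.09, 9.10, 6.98 and 7.71, and Samd9l 6.93, 8.99, 5.17 and 7.19. The STAT3-deficient array was the highest of the 4 in each. Ifit1 and Rtp4, at 1.96 and 1.99, came to less than 2-fold when levels were raised to the background level. Of 16 IFN-γ genes, 6 were higher and 2 lower (median 0.56). Gbp6 (2.34) and Gbp7 (1.46), antimicrobial GTPases, were higher, whereas their relative Gbp2 went from 12.65 to 10.86 (-1.79). Ifngr2, a receptor chain, stood at -1.20 and lost its call with array centring. Ifng read 3.84, 8.56, 4.84 and 4.56 on the 4 arrays and was above background in the STAT3-deficient culture alone. In the p200 family, Mndal read 6.21, 11.46, 3.77 and 7.40, higher without either STAT.

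Genes of antigen presentation lay high in the same culture. Of 19 compared, 17 lay above 0, 6 were higher and 0 lower (median 0.65). Cd74, the invariant chain of class II molecules, read 7.61, 10.67, 8.29 and 8.56 on the 4 arrays, and H2-Eb1, a class II chain, 6.82, 8.21, 6.73 and 6.77. Psmb9, a subunit of the immunoproteasome, went from 10.65 to 12.09 (1.43), H2-Oa from 7.35 to 8.76 (1.41) and the peptide transporter gene Tap2 from 9.32 to 10.34 (1.03). Class II members did not all follow. H2-Ab1 stood at -0.75, H2-Aa was under background on both arrays of the pair, and so was Ciita, the class II transactivator. The class I genes H2-K1 (0.37) and B2m (0.13) lay within 2-fold. B cell markers had a median level of 5.83 on the wild-type array and 5.86 on the deficient one, and myeloid and dendritic markers of 5.88 and 5.37, both under background. The part of such cells in the class II values was not tested.

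A few genes of the T cell receptor signalling list were higher, while the receptor chain Cd3e (-0.04) was not. Of 37 genes, 5 were higher and 2 lower (median -0.04), or 4 and 3 with probe sets averaged. Trat1 read 3.84, 9.82, 5.67 and 5.10 on the 4 arrays and was above background in the STAT3-deficient culture only. Rasgrp1, which activates RAS, went from 8.12 to 9.76 (1.63) and Sh2d1a, the adaptor SAP, from 8.21 to 10.00 (1.79). Vav3 went from a level under background of 5.98 to 7.64 (1.66). Malt1, the protease of the pathway to NF-κB, went from 12.02 to 8.97 (-3.06), and its 3 probe sets ran from -3.06 to -2.32. In the STAT5 pair it stood at -1.03. The kinase gene Txk was lower by -1.39. Phosphatases of MAP kinases were split, with Dusp5 (2.17) and Dusp1 (1.44) higher and Dusp16 (-1.58) lower.

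A few genes of cell death were lower. Of 14 caspase and inflammasome genes 4 were lower and 1 higher. Casp6, an executioner caspase, went from 10.60 to 8.64 (-1.95) and Ripk3, a kinase of necroptosis, from 9.77 to 8.48 (-1.29). Gsdmd (-1.11) and Birc3 (-1.07) lost their calls with centring. Casp1 was higher (1.78), from a level under background. Of 15 BCL2 family genes, the proapoptotic Pmaip1 was lower by -1.89, and Bik, at the 2-fold limit, lost its call with centring. Either centring turned the balance of this family to 3 higher and 1 lower, and left 2 of the 4 lower caspase and inflammasome genes.

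Surface guidance, channels and metabolism gave smaller groups. Of 25 semaphorin, plexin and Notch genes, 4 were higher and 3 lower. Plxnd1 went from 6.41 to 9.06 (2.65) and Nrp1 from 7.41 to 10.00 (2.59), while Sema4f went from 10.90 to 8.07 (-2.83) and Sema7a from 9.78 to 7.66 (-2.12), or -1.50 with probe sets averaged. Notch2 (1.39) came to 0.64 with probe sets averaged, and the Notch inhibitor Nrarp was lower by -1.58. Among 22 channels, the potassium channels Kcnk6 (2.92) and Kcnk5 (1.59) were higher without STAT3 and lower without STAT5 (-1.69 and -1.54), and the calcium release channel Itpr3 (-1.93), the cation channel Trpm4 (-1.49) and the calcium pump Atp2b4 (-1.64) were lower without STAT3. Of 18 subunits of the vacuolar proton pump, 3 were lower: Atp6v0d2 (9.59 and 4.36, -5.23), Atp6v0a1 (-1.56) and Atp6v0e2 (-1.30). Atp6v0d2, under background without STAT3, came to -3.39 with levels raised to background, and Atp6v0a1 to -1.01 with probe sets averaged.

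Lipid and glycan enzymes had single members far from their controls. Among all genes compared, 2.85% were higher and 7.23% lower. Of 42 lipid genes 4 were higher (9.52%) and 6 lower (14.3%). Dgat1, which makes triglycerides, went from 12.03 to 9.15 (-2.88, or -2.21 with probe sets averaged and -1.54 by its other probe set), Plin2, a coat of lipid droplets, from 11.69 to 10.21 (-1.48) and Acsbg1, an acyl-CoA synthetase, from 9.92 to 8.22. Scd1, the desaturase of fatty acids, went from 10.25 to 12.25 (2.00). Acsl6 (8.76) and Idi2 (10.45) were under background in the control, and the 4.71 of Acsl6 came to 2.73 with probe sets averaged. Of 44 glycosyltransferases 4 were higher (9.09%) and 6 lower (13.6%). B3gnt8, which extends glycans, went from 9.58 to 6.29 (-3.28), and Gcnt2, which branches them, from 10.07 to a level under background of 3.94 (-6.13, or -2.81 with probe sets averaged). The sialyltransferase genes St8sia6 (2.34) and St8sia4 (2.00, or 1.24 with probe sets averaged) were higher and St3gal4 (-1.29) lower. Of 34 transporters 5 were lower (14.7%) and 1 higher (2.94%, close to the share of all genes). Slc24a3 (-2.30) and the amino acid carrier Slc16a10 (-1.63) were lower, and the zinc carrier Slc39a4 higher (1.18). Slc12a1, Slc16a3 and Slc4a2 lost their calls with centring. Array centring turned the balance in these lists, to 7 higher and 3 lower lipid genes, 7 and 4 glycosyltransferases and 6 and 2 transporters.

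**Figure D5:**
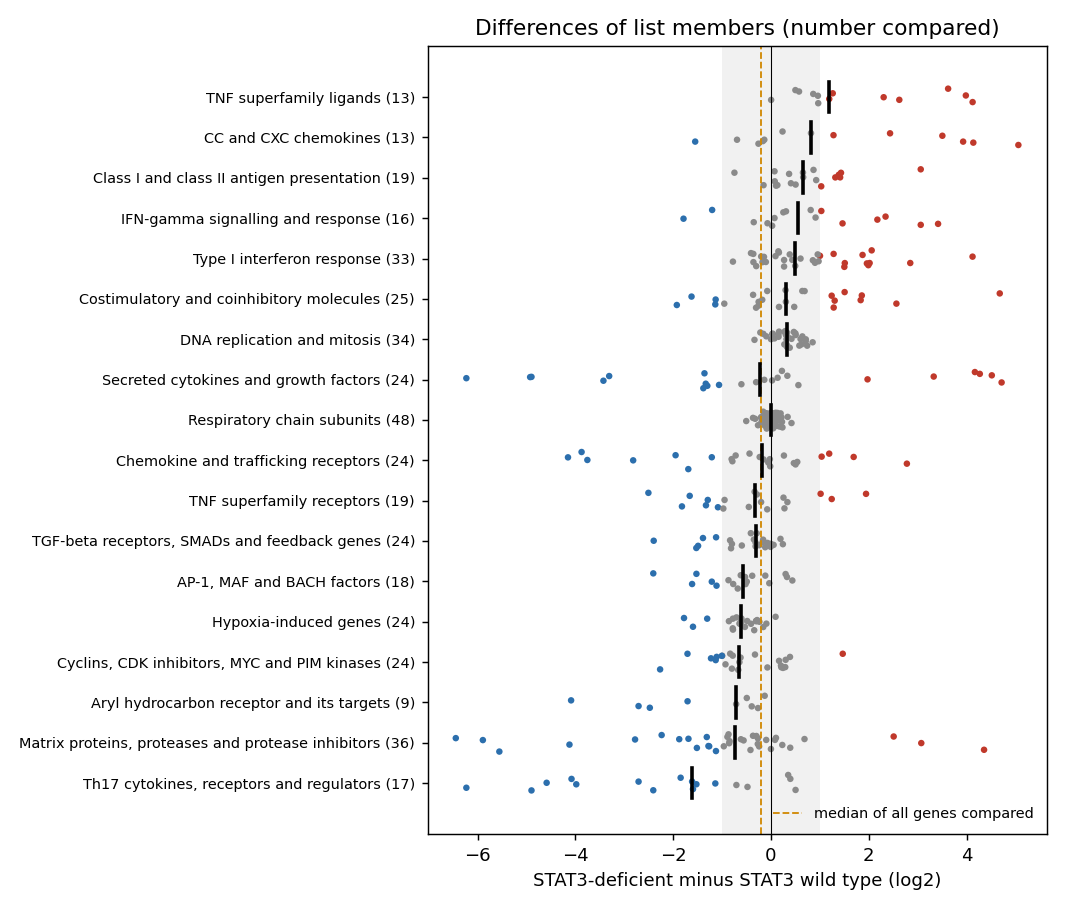
Difference without STAT3 (log2, horizontal axis) of each compared member of 18 gene lists, with the number compared; red and blue points are past 2-fold, black ticks are list medians, the grey band is within 2-fold and the dashed line is the median of all genes, -0.20. TNF ligands (median 1.19) lie to the right, and matrix genes (-0.73) and the Th17 list (-1.61) to the left.

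The 15 largest differences in each direction were also listed among genes with both arrays above background and all probe sets that exceed background moving alike. On the higher side Lad1, a protein of basement membrane anchorage, read 6.44, 12.31, 6.39 and 8.14 on the 4 arrays (5.86, 58.2-fold). Car2, a carbonic anhydrase, read 6.71, 12.38, 7.05 and 7.30 (5.66, 50.6-fold). Each stood highest in the STAT3-deficient culture. Dapl1 (3.79), the enolase gene Eno3 (3.37) and Pdzk1ip1 (3.37) belonged to none of the lists. On the lower side, Crispld2, a secreted glycoprotein, read 12.80, 8.02, 10.72 and 11.58 (-4.78), and its 3 probe sets ran from -6.08 to -4.33. Gem (-3.95), a small GTPase, Pltp (-3.52), a phospholipid transfer protein, and Upp1 (-3.48), which splits uridine, were higher or within 2-fold in the STAT5 pair (1.69, 2.18 and 0.84). Hipk2, a nuclear kinase, was lower by -3.72, and the 7 of its 8 probe sets above background ran from -3.72 to -1.32. For Mt1, a metal-binding metallothionein, the 2 probe sets gave -3.75 and -0.44.

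The same genes were followed in the STAT5 pair, in which 1.86% of genes passed 2-fold upwards and 1.74% downwards. Of the 354 genes higher without STAT3, 47 were higher without STAT5, 22 lower and 285 within 2-fold. Of the 900 lower genes, 69 were higher without STAT5, 68 lower and 763 within 2-fold. The pairs differ in IL-2 as well as in the deleted gene, so the factor and the culture cannot be told apart between them.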

How the data were processed

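Total RNA of 4 cultures was hybridised to Affymetrix Mouse Genome arrays, 1 per culture. The authors deposited expression values per probe set, processed with Affymetrix Power Tools per the submitters' processing notes. For its version, the algorithm, the normalization and the log base, the sources used here give nothing. The log2 scale was read from the range of the deposited values, 2.48 to 15.09, and another base would change every fold. The platform annotation pairs 34958 of 45101 probe sets with 1 gene, 932 with several and 9211 with none, and only those with 1 gene gave gene values. Of the Entrez identifiers, 99.1% matched RefSeq (GRCm38.p6, also the source of the promoters), and 0 symbols changed. Groups follow the sample titles.

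A gene was kept where its highest value exceeded the median of all values (percentile 50), and called from 2-fold on, with no test. Genes named are Stat3 and Il17a, the 15 largest measured differences each way with probe sets moving alike, members of the gene lists, and up to 6 called genes with a STAT-type promoter motif. The members and lists were chosen with earlier results of these data known. Probe sets of the same gene had a median SD of 0.23 over 5557 genes, which is not replicate error. Alternatives were probe set averaging, leaving out cross-matching probe sets, no filter, a filter at percentile 75, centring on array medians or by intensity (loess, span 0.4), levels raised to the background level, and 1.5-fold and 3-fold calls. The calling steps were tested on simulated data with changes larger than 2-fold in genes well above background. That test does not cover calls near the 2-fold limit or near background. Python 3.11.15, pandas 2.3.3, statsmodels 0.14.6 and matplotlib 3.10.9 were used.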

Additional observations from a re-analysis of the deposited data

How the results depend on the processing

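Against 354 higher and 900 lower genes (71.8% lower), array median centring left 590 lower genes and 53.4% lower, and intensity-dependent centring 56.3% lower. Without a filter 74.6% were lower, and a filter at percentile 75 left 223 higher and 551 lower genes, as fewer genes (7722) were compared. A 1.5-fold call gave 704 higher and 2389 lower genes (77.2% lower), and a 3-fold call 179 and 343 (65.7%). Of 280 called genes named here or on a list, 247 kept their call with array centring, 253 with intensity-dependent centring, 265 with levels raised to the background level, 243 of 272 with probe sets averaged, 273 of 277 without cross-matching probe sets and 235 of 235 under the stricter filter. None changed sign under these 6 alternatives, but only probe set averaging and leaving out cross-matching probe sets could have changed a sign. The stricter filter leaves each difference as it is, so its calls could not be lost. Of 56 list medians, array centring raised all by 0.24, and 9 moved by more than 0.23 with intensity-dependent centring, 8 with probe sets averaged, 2 with levels raised to the background level, 4 with no filter, 7 of 53 under the stricter filter and 1 without cross-matching probe sets. No paired analysis was possible because each group has 1 array. Signal over background limits the size of folds of genes under 6.20 on an array, and no value has a replicate.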

Other observations

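Of 3123 probe sets without a gene name in the annotation used here that exceeded the background level, 49 (higher) and 251 (lower) passed 2-fold in the STAT3 pair, 9.61% together, and their median difference was -0.27. Among those above background on both arrays, the farthest probe set on each side went from 6.79 to 10.86 (4.07) and from 10.34 to 7.04 (-3.31).

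Ncf1, a subunit of the phagocyte oxidase, read 5.70, 10.69, 8.03 and 5.50 on the 4 arrays (control and deficient of the STAT3 pair, then of the STAT5 pair), higher without STAT3 and lower without STAT5 (-2.53). Its partner genes Cyba (0.47), Ncf4 (0.34) and Rac2 (0.08) lay within 2-fold without STAT3. The Schlafen genes Slfn1 (0.76) and Slfn2 (0.89), which are linked to T cell quiescence, differed by 1.24 and 1.32 in the STAT5 pair. They lay within 2-fold without STAT3, but with array centring 3 of the 4 compared Schlafen genes passed it. Of 8 GIMAP genes, GTPases of lymphocyte survival, 0 passed 2-fold, from -0.54 to 0.77.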
